A study of Homo sapiens with 4 samples.

Results

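The genes described are 10 regulators of the passage from G1 into S phase: the D-type cyclins CCND1, CCND2 and CCND3, their kinases CDK4 and CDK6, the E-type cyclins CCNE1 and CCNE2, their kinase CDK2, the phosphatase CDC25A and the ubiquitin ligase subunit SKP2. They were taken by symbol from the 48162 genes of the deposited table, and each symbol matched a single gene. RNA came from MDA-MB-231, an established human breast cancer line without estrogen receptor, kept in DMEM with 10% FBS and antibiotics. Of the 4 libraries, 2 were from cells given MGH-CP1 at 10 µM for 24 h and 2 from cells given vehicle alone. MGH-CP1 is a small molecule that blocks the palmitoylation of TEAD, the DNA-binding partner of the coactivators YAP and TAZ. The comparison asks how these cell cycle genes stand when TEAD is inhibited. The labels do not say whether the libraries of a group came from separate cultures, so p-values measure the spread between libraries only.

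As background, growth signals raise D-type cyclins, which bind CDK4 or CDK6 and begin to phosphorylate the retinoblastoma protein RB1. This releases E2F transcription factors, which switch on genes for DNA synthesis as well as the E-type cyclins, and cyclin E with CDK2 completes the phosphorylation of RB1 and opens S phase. CDC25A removes inhibitory phosphates from CDK2, and SKP2 is the part of an SCF ubiquitin ligase that recognises the CDK inhibitor p27. In breast cancer cells CCND1 is a well known oncogene, and inhibitors of CDK4 and CDK6 are used as drugs.

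Fragments on listed genes numbered 25455533 and 25508824 for vehicle control, more than the 17997221 and 17577930 for MGH-CP1, and mitochondrial genes took 0.418 to 0.447% and 1.53 to 1.57% of them. The TEAD target genes CTGF, CYR61 and ANKRD1 were called lower after MGH-CP1, with log2 fold changes between -0.75 and -0.66. VIM and CD44, which mark this mesenchymal line, stood above 190 FPKM in every library, and AXL, CAV1 and EGFR of the same list of 6 were called lower after MGH-CP1 (log2 fold changes -0.76, -0.49 and -0.46), while ZEB1, at 15.4 to 17.0 FPKM, was not called. Of the luminal and epithelial genes, ESR1 and PGR did not exceed 0.0243 FPKM and CDH1 did not exceed 0.638 FPKM, but GATA3 stood at 4.17 to 5.65 FPKM, near the level of the E-type cyclins. PTPRC, a gene of blood cells, did not exceed 0.0321 FPKM, and CD3E and DES, of T cells and muscle, were listed at 0. The CDK inhibitor genes CDKN2A and CDKN2B, known to be deleted in MDA-MB-231, had at most 0.0306 FPKM. MGH-CP1 replicate 2 stood apart in genes typical of liver cells, a list written after ALB was seen. All 11 of them were detected there, with 290 fragments in all, of which 102 were on ALB, against 0, 3 and 8 fragments in vehicle control replicates 1 and 2 and MGH-CP1 replicate 1. Without this library, the 8 G1/S genes called lower with all libraries (described next) had log2 fold changes from -0.95 to -0.24.

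After MGH-CP1, 8 of the 10 genes were lower, by log2 fold changes from -0.85 for CDC25A to -0.19 for CCND1 (adjusted p under 0.05 from limma). CCND3 was not called, and CCND2 was too low to be tested. None of the 9 genes tested was called higher at an adjusted or an unadjusted p under 0.05 by limma, nor by limma voom on fragments. Over all 12080 genes tested, 23.8% were called lower and 27.1% higher. In the same 8 genes both MGH-CP1 libraries lay below both vehicle control libraries, which held for 37.4% of all genes tested, and in 0 of the 9 tested both lay above, against 39.8% of all genes. The median log2 fold change was -0.41 over the 9 genes and 0.01 over all genes tested. With 2 libraries against 2 an exact permutation test of a single gene cannot go below p = 0.33, so the calls depend on the pooling of variance over genes in limma. Without that pooling, 9 of all 12080 genes were called higher and 4 lower, and 0 of the 8 passed an adjusted p of 0.05. Of the 8, 5 then had an unadjusted p under 0.05 from limma, and the share of all genes that did was not computed. In RNA from a whole culture, fewer cells in a phase of the cycle and less RNA per cell cannot be told apart.

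**Figure D1:**
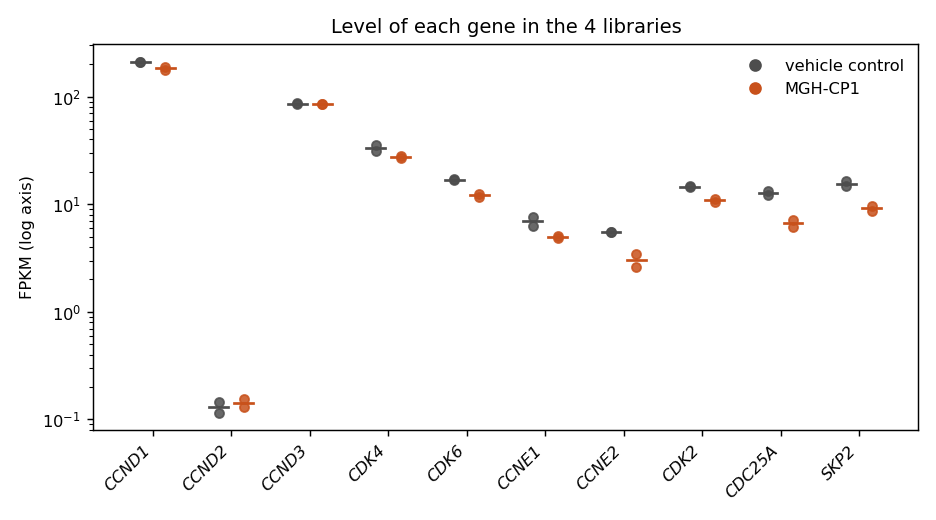
FPKM on a log axis for the 10 G1/S genes, with each library as a point and the mean of each group as a short line. CCND1 stands highest at 210 FPKM in vehicle control and CCND2 lowest at 0.130, and the MGH-CP1 points lie below the vehicle control points for every gene except CCND2 and CCND3.

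The levels can be compared between genes because FPKM is divided by gene length. In vehicle control the mean FPKM ran from CCND1 (210) through CCND3 (85.7), CDK4 (33.4), CDK6 (17.0), SKP2 (15.6), CDK2 (14.5), CDC25A (12.8), CCNE1 (6.95) and CCNE2 (5.55) to CCND2 (0.130). Neighbours in this order did not overlap between their libraries in either condition. After MGH-CP1 the order was the same but for SKP2, at 9.20 FPKM, which now stood below CDK2, at 10.9 FPKM. No test was made of the order, and the listed length of CDK6, 11612 bases, is much longer than those of the others, which run from 2043 to 6480 bases.

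**Figure D2:**
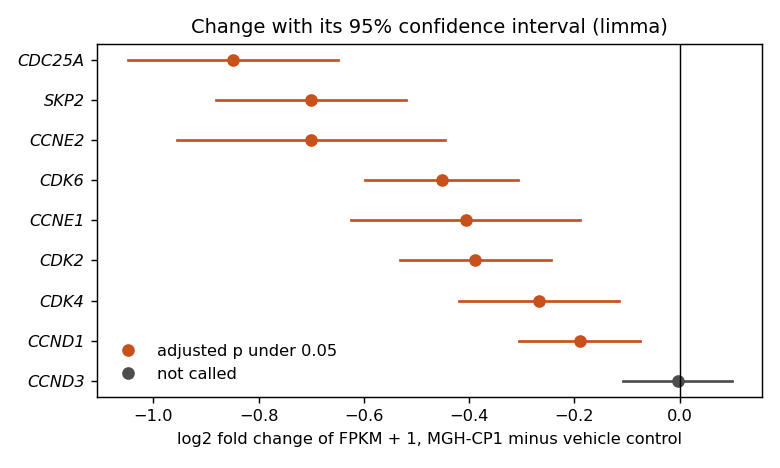
Log2 fold change of FPKM + 1 for the 9 genes tested, MGH-CP1 minus vehicle control, with the 95% confidence interval from limma. The intervals of 8 genes lie wholly below 0, from CDC25A at -0.85 to CCND1 at -0.19, and that of CCND3 spans 0.

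Cyclin D1 was the most abundant of these transcripts and had the smallest log2 fold change of those called. CCND1 (ENSG00000110092, plus strand of chromosome 11 from 69455855 to 69469242 in hg19) had 209 and 212 FPKM in vehicle control and 178 and 190 FPKM after MGH-CP1. Both treated libraries were below both controls, and the treated replicates differed from each other more than the controls did. The mean FPKM fell by 12.4%, which is -0.19 on the log2 scale (standard error, SE, 0.05, adjusted p = 0.0138, limma). Of all genes tested, 55.6% changed by more in either direction. The call was lost without MGH-CP1 replicate 1, where the log2 fold change was -0.14 (adjusted p = 0.114 from limma), and also without the variance trend (adjusted p = 0.0567 from limma). ORAOV1, on the opposite strand, overlaps 1399 bases of CCND1 and held 492 to 649 fragments per library, against 13814 to 23291 on CCND1.

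Cyclin D3, which serves the same kinases, was the gene without a call. CCND3 (ENSG00000112576, minus strand of chromosome 6 from 41902671 to 42018095 in hg19) had 86.4 and 85.1 FPKM in vehicle control and 85.3 and 85.7 FPKM after MGH-CP1. The 4 libraries were intermingled. Its log2 fold change was -0.0041 with a 95% confidence interval from -0.11 to 0.10 (adjusted p = 0.946 from limma). Between 3606 and 5265 fragments were counted on CCND3 per library.

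Cyclin D2, the third of the family, was close to 0 in this line. CCND2 (ENSG00000118971, plus strand of chromosome 12 from 4382938 to 4414516 in hg19) had 0.115 and 0.145 FPKM in vehicle control and 0.154 and 0.132 FPKM after MGH-CP1, from 15 to 24 fragments per library. The groups overlapped. The ratio of MGH-CP1 to vehicle control was 1.10, with an exact 95% interval from 0.677 to 1.77 that covers counting error only, and no difference was detectable at this depth. Together the D-type cyclins summed to 295 and 297 FPKM in vehicle control and to 264 and 276 FPKM after MGH-CP1. CCND1 made up 71.0% ± 0.447 (SD, n = 2) of this sum in vehicle control and 68.3% ± 0.949 (SD, n = 2) after MGH-CP1, with CCND3 nearly all of the rest.

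The kinases that pair with D-type cyclins were both called lower, with overlapping 95% confidence intervals from limma (CDK4 -0.42 to -0.11, CDK6 -0.60 to -0.31). CDK4 (ENSG00000135446, minus strand of chromosome 12 from 58141510 to 58149796 in hg19) had 31.5 and 35.3 FPKM in vehicle control and 27.0 and 28.1 FPKM after MGH-CP1. The groups did not overlap, but the controls differed from each other by about as much as the nearer control did from the treated libraries. The log2 fold change was -0.27 (SE 0.07, adjusted p = 0.0106, limma). It was -0.24 without MGH-CP1 replicate 1 and -0.19 without vehicle control replicate 2. The call was lost with no filter on low genes (adjusted p = 0.0858, limma) and without shared variance (adjusted p = 0.173, limma). TSPAN31 runs along 2485 bases of CDK4 on the opposite strand and rose by a log2 fold change of 0.62, with 288 to 396 fragments against 1007 to 1869 on CDK4. MARCH9, also on the opposite strand, overlaps 916 bases of CDK4 and held 270 to 335 fragments. Its log2 fold change was 0.21 and it was not called (adjusted p = 0.0628, limma). Whether counting used the strand is not given in the sources used here, and the part of TSPAN31 and MARCH9 in the CDK4 value was not tested.

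CDK6 (ENSG00000105810, minus strand of chromosome 7 from 92234235 to 92465908 in hg19) had 17.3 and 16.7 FPKM in vehicle control and 11.7 and 12.6 FPKM after MGH-CP1. Here the gap between the conditions was several times the spread within either. The log2 fold change was -0.45 (SE 0.06, adjusted p = 7.02e-04, limma), and 7.64% of the genes tested fell by more. Between 2450 and 5106 fragments were counted on CDK6 per library. The share of CDK6 in the summed FPKM of CDK4 and CDK6 was 33.8% ± 2.37 (SD, n = 2) in vehicle control and 30.6% ± 0.414 (SD, n = 2) after MGH-CP1.

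Both E-type cyclins fell, and their summed FPKM after MGH-CP1 was 0.642 of that in vehicle control. CCNE1 (ENSG00000105173, plus strand of chromosome 19 from 30302805 to 30315215 in hg19) had 6.31 and 7.60 FPKM in vehicle control and 5.06 and 4.90 FPKM after MGH-CP1. The treated libraries lay close together below the controls, which differed from each other by about as much as the nearer control did from them. The log2 fold change was -0.41 (SE 0.09, adjusted p = 0.00792, limma), from 176 to 396 fragments per library. The call was lost with no filter on low genes (adjusted p = 0.0792, limma), and without vehicle control replicate 2 the log2 fold change was -0.29 (adjusted p = 0.049, limma). CCNE2 (ENSG00000175305, minus strand of chromosome 8 from 95891998 to 95908906 in hg19) had 5.58 and 5.52 FPKM in vehicle control and 2.64 and 3.47 FPKM after MGH-CP1. For CCNE2 it was the treated libraries that were spread, on 158 and 203 fragments, and both stayed far below the controls. Its log2 fold change was -0.70 (SE 0.11, adjusted p = 0.00125, limma). On the opposite strand, NDUFAF6 and INTS8 overlap 912 and 1977 bases of CCNE2, with 218 to 431 and 577 to 970 fragments, and NDUFAF6 was itself called lower, at a log2 fold change of -0.31 (adjusted p = 0.0153, limma), while INTS8 was not called. Their part in the value of CCNE2 was not tested.

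CDK2, the kinase partner of cyclin E, was lower too, with a mean FPKM after MGH-CP1 at 0.748 of that in vehicle control. CDK2 (ENSG00000123374, plus strand of chromosome 12 from 56360553 to 56366568 in hg19) had 14.6 and 14.5 FPKM in vehicle control and 10.6 and 11.2 FPKM after MGH-CP1. Replicates were close in both conditions and the groups were well apart. The log2 fold change was -0.39 (SE 0.06, adjusted p = 0.00134, limma). The whole of CDK2 lies within the listed span of PMEL on the opposite strand, a pigment cell gene that held only 25 to 39 fragments per library.

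The regulators of these kinases were lower as well, with CDC25A at 0.521 of its mean vehicle control FPKM and SKP2 at 0.591, while CCNE2 was at 0.550. CDC25A (ENSG00000164045, minus strand of chromosome 3 from 48198636 to 48229892 in hg19) had 12.2 and 13.3 FPKM in vehicle control and 6.12 and 7.19 FPKM after MGH-CP1. Both treated libraries lay far below both controls. Its log2 fold change was -0.85 (SE 0.09, adjusted p = 1.57e-04, limma), and only 0.960% of the genes tested fell by more. SKP2 (ENSG00000145604, plus strand of chromosome 5 from 36152091 to 36184421 in hg19) had 16.3 and 14.8 FPKM in vehicle control and 8.68 and 9.72 FPKM after MGH-CP1. The groups were again well apart, on 587 to 1562 fragments per library. Its log2 fold change was -0.70 (SE 0.08, adjusted p = 2.39e-04, limma), and 2.32% of the genes tested fell by more. Through all settings tried, the log2 fold change of CDC25A ranged from -0.95 to -0.75 and that of SKP2 from -0.77 to -0.63, and both were called in 13 of 14 settings, the exception being limma without shared variance.

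Promoter sequences from RefSeq (GRCh38.p14, another build than that of the deposited table) were at hand for 6 of the 10 genes, at 9 start sites. The 250 bases before each start were searched on both strands for E2F sites (TTTCCCGC, TTTGGCGC, TTTGCCGC or TTTCGCGC), the TEAD site GGAATG, the AP-1 site TGANTCA and the MYC site CACGTG, none of which overlapped another match. Among all 35116 promoters of this length, 2.79% held an E2F site, 11.9% a TEAD site, 6.57% an AP-1 site and 6.34% a MYC site. CDC25A held an E2F site at positions -44 to -37 from its start, CDK4 held 3 MYC sites, and the second of 3 listed CCND3 starts held a TEAD site at -41 to -36. At least 3 MYC sites were found in 0.0797% of all promoters. In SKP2, CCNE1 and CDK6 none of these letters was found in the window. Sites with other letters, further upstream or past the start were not searched, so a gene without a match may still hold such sites. The 3 promoters with a match are shown with the matches in capitals, for CDC25A, which had the lowest log2 fold change, for CDK4, and for CCND3, which was not called.
CDC25A, chr3:48188418-48188667, minus strand: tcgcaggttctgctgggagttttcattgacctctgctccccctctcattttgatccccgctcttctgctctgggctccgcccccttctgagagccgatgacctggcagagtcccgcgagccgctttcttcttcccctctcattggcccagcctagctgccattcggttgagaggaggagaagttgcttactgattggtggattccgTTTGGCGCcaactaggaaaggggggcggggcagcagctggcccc
CDK4, chr12:57752311-57752560, minus strand: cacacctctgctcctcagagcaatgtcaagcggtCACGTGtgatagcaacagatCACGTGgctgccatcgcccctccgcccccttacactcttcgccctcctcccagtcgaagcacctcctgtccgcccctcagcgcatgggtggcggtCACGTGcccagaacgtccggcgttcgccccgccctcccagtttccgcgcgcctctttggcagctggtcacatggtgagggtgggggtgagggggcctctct
CCND3, second listed start, chr6:41941809-41942058, minus strand: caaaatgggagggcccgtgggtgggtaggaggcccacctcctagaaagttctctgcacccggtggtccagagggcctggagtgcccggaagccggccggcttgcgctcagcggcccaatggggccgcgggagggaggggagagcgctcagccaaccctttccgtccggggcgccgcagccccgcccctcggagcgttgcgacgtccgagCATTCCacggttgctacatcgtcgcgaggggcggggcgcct

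Whether relatives within a family moved by unequal amounts was asked from the log2 ratio of their FPKM inside each library, which does not depend on scaling between libraries. The ratio of CCND1 to CCND3 was 1.27 and 1.32 in vehicle control and 1.06 and 1.15 after MGH-CP1. That of CCNE1 to CCNE2 was 0.18 and 0.46 in vehicle control and 0.94 and 0.50 after MGH-CP1. That of CDK4 to CDK6 was 0.86 and 1.08 in vehicle control and 1.20 and 1.16 after MGH-CP1. In each of these pairs the groups did not overlap, with the shares of CCND1, CCNE2 and CDK6 lower after MGH-CP1. Of single genes tested, 37.4% had both MGH-CP1 libraries below both vehicle control libraries and 39.8% had both above. How often the ratios of other gene pairs do not overlap was not computed. CDK2 to CDK4, the fourth ratio computed, went from -1.10 and -1.29 to -1.35 and -1.33. The mean shifts were -0.19, 0.40, 0.21 and -0.14 in this order, and in each of the 4 an exact two-sided permutation test over libraries gave p = 0.33 (adjusted p = 0.33), the smallest that this design allows, so that the test could not have shown a difference between relatives. Single libraries weighed on these shifts. That of CCNE1 to CCNE2 was 0.18 without MGH-CP1 replicate 1, 0.62 without MGH-CP1 replicate 2 and 0.26 without vehicle control replicate 1. Without vehicle control replicate 1 that of CDK4 to CDK6 was 0.10 and that of CDK2 to CDK4 -0.052, and without vehicle control replicate 2 they were 0.32 and -0.24.

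**Figure D3:**
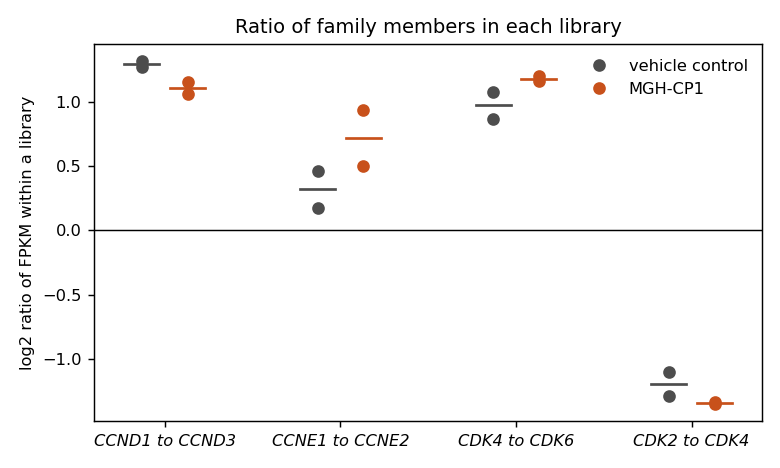
Log2 ratio of FPKM between 2 genes of a family in each library, with each library as a point and the mean of each group as a short line. The vehicle control and MGH-CP1 points do not overlap in any of the 4 ratios, and how often those of other gene pairs do not was not computed. CDK4 is part of both CDK4 to CDK6 and CDK2 to CDK4. The points of CCNE1 to CCNE2 are the most spread, with 0.46 and 0.50 for the nearest pair.

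Further along the pathway, all 22 genes of a list of E2F target genes of the G1/S transition were called lower, with log2 fold changes from -1.10 to -0.43 and a median of -0.75, where 23.8% of all genes tested were lower. RRM2, a subunit of ribonucleotide reductase, had 89.4 and 90.9 FPKM in vehicle control and 40.0 and 43.3 FPKM after MGH-CP1 (log2 fold change -1.10, adjusted p = 1.50e-05 from limma). MCM10, a factor that helps start replication forks, fell by 0.97 on the log2 scale. Cyclins A, B and F with CDK1, which act mostly from S phase to mitosis, were lower in 6 of 6 tested, with a median of -0.70. CCNA2 had 86.5 and 83.5 FPKM in vehicle control and 39.1 and 41.6 FPKM after MGH-CP1, and CDK1 fell by 0.83 on the log2 scale. The sum of FPKM over the E2F targets was 1360 and 1357 in vehicle control and 772 and 860 after MGH-CP1, lower in both treated libraries, and the part of a lower share of cells in S phase in the values of the G1/S genes was not tested.

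E2F factors and pocket proteins, which sit between the cyclins and these targets, were lower in 8 of 13 tested and higher in 1, where 23.8% and 27.1% of all genes tested were. E2F8, a repressor of the family and itself an E2F target, fell by 0.96 and RBL1, the p107 pocket protein, by 0.63 on the log2 scale, while RBL2, the p130 pocket protein of resting cells, rose by 0.24. RB1 itself had 28.6 and 25.4 FPKM in vehicle control and 22.1 and 22.8 FPKM after treatment, or -0.25 as a log2 fold change (adjusted p = 0.0143 from limma).

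Of 5 CDK inhibitors tested, 3 were called higher and 1 lower, where 27.1% and 23.8% of all genes tested were. CDKN1A, which encodes p21, had 43.3 and 46.7 FPKM in vehicle control and 62.6 and 61.9 FPKM after MGH-CP1 (log2 fold change 0.46, adjusted p = 2.98e-04 from limma). CDKN1C, which encodes p57, rose by 0.69 on the log2 scale from 3.85 and 4.95 FPKM. CDKN1B, whose product p27 is the substrate of SKP2, rose by 0.21, whereas CDKN2C, which encodes the CDK4 and CDK6 inhibitor p18, fell by 0.39. CDKN2D was not called, and CDKN2B was listed at 0 in every library.

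Of 17 genes tested in the ubiquitin-dependent turnover of cyclins and p27, 6 (35.3%) were lower and 1 was higher. Over all genes tested these shares were 23.8% and 27.1%. Besides ligase parts the list holds the kinase GSK3B and the ubiquitin-conjugating enzymes CDC34 and UBE2R2, none of them called. CKS1B, the cofactor through which SKP2 binds p27, had 101 and 103 FPKM in vehicle control and 65.4 and 72.7 FPKM after MGH-CP1 (log2 fold change -0.56, adjusted p = 1.92e-04 from limma). CKS2 fell by 0.47 and CUL1, the scaffold of the SCF ligase, by 0.36, while SKP1, at 148 and 139 FPKM in vehicle control and 142 and 135 FPKM after MGH-CP1, was not called. FBXO31, an adaptor for cyclin D1, was the single gene called higher (log2 fold change 0.23, adjusted p = 0.0494 from limma, close to the threshold). A second entry of the symbol CKS1B held at most 8 fragments, and RBX1, a subunit that every cell uses, was listed at no more than 0.742 FPKM, so the table does not give a usable value for it.

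Among genes that set the phosphorylation of CDKs, 5 of 9 were lower at an adjusted p under 0.05 from limma, where 23.8% of all genes tested were. PKMYT1, an inhibitory kinase of CDK1, fell by 0.73 and CDC25C, the mitotic relative of CDC25A, by 0.58 on the log2 scale. CDC25B fell by only 0.15, and CDK7, CCNH and MNAT1, the subunits of the CDK-activating kinase, were not called. Of 25 other cyclins and CDKs tested, outside the core cell cycle, 6 (24.0%) were lower and 8 (32.0%) higher, near the 23.8% and 27.1% of all genes tested, with a median of -0.01. CCNL2, a cyclin linked to splicing, had 17.4 and 18.1 FPKM in vehicle control and 37.2 and 35.0 FPKM after MGH-CP1 (log2 fold change 0.98, adjusted p = 2.22e-05 from limma), and CDK18 rose by 0.70. CDK14 and CCNJ fell most of this list, by 0.33 each. The near-identical CDK11A and CDK11B could share reads, and CDK11A had at most 0.343 FPKM.

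**Figure D4:**
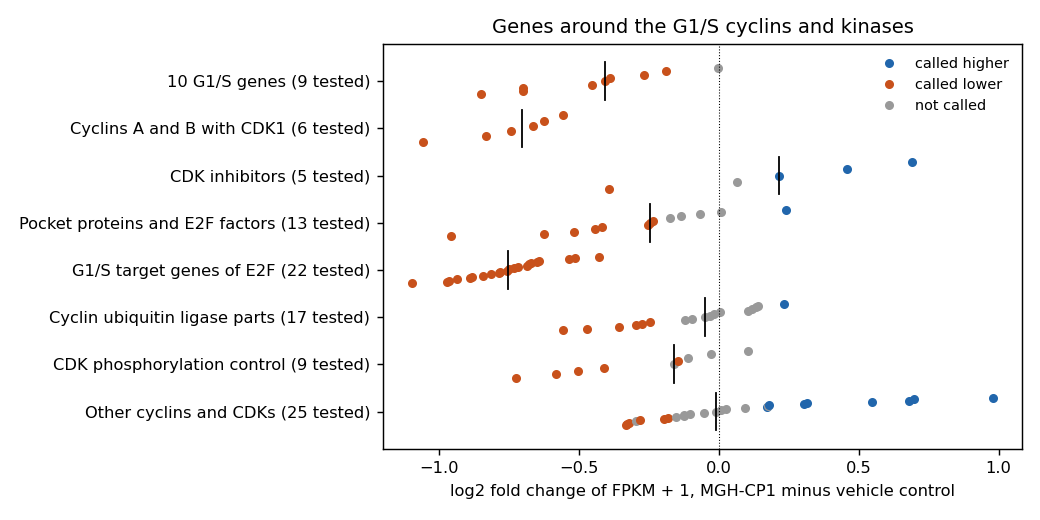
Log2 fold change of FPKM + 1, MGH-CP1 minus vehicle control, for the G1/S genes and 7 lists of genes around them, with each gene as a point coloured by its call in limma and the median of each list as a black line. The E2F targets and the cyclins A and B with CDK1 lie wholly to the left of 0, with medians of -0.75 and -0.70, while the CDK inhibitors have a median of 0.21 and the other cyclins and CDKs one of -0.01.

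Genes with the most similar profile over the 4 libraries were found by the Euclidean distance of log2(FPKM + 1) centred on each gene's mean. Nearest to CDC25A were CDC20, an activator of the anaphase-promoting complex, BRI3BP and HMGB2, at distances of 0.0532 to 0.0614. Nearest to SKP2 were DDAH1, LDLRAD3 and PCNA, the replication clamp, at 0.0201 to 0.0406. Nearest to CCNE2 were CTD-2267D19.6, DKK1 and JDP2, at 0.0159 to 0.0389. With 4 libraries many genes lie as close, since 19 genes were within a distance of 0.1 from CDC25A, 87 from SKP2 and 41 from CCNE2.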

How the data were processed

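Poly(A) RNA of MDA-MB-231 cells was sequenced as 150 bp paired-end reads, in 2 libraries per condition. The labels give the dose as 10 µM, while the methods text writes the unit as mM. The authors deposited FPKM for each library, that is fragments scaled by listed gene length and by the total on listed genes. The processing notes of the submitters name CASAVA 1.8, STAR and hg19, and the counting tool is not given in the sources used here. The deposited columns were matched to samples by condition and replicate number. FPKM times length was a whole multiple of a single step for 100% of values above 0 (within 0.01 fragments), which returned the fragments counted.

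The 12080 genes whose FPKM averaged 1 or more were compared on log2(FPKM + 1) with limma 3.58.1 in R 4.3.3 (eBayes with trend, two-sided, Benjamini-Hochberg over all genes tested, threshold 0.05). This scale understates changes of low genes. Replicates differed by more than counting noise (chi-square per gene 4.69 and 3.35). Permutation tests used scipy 1.17.1. Alternatives were a pseudocount of 0.1, other scalings, filters and variance models, voom on fragments, the replicate block, and leaving out each library. The fit was tested on simulated data.

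The members and the gene lists were chosen with earlier results of these data known, and the list of liver genes after ALB was seen. Lists were written from general knowledge, and 1 marker (PECAM1) was not found under its symbol. Genes named beyond the members are the 2 largest called rises and falls of each list with groups that do not overlap, any listed at 0 throughout, the nearest 3 profiles of the 3 members that changed most, and genes overlapping a member. Others, such as RB1, CUL1, SKP1, CDKN1B, CDC25B and RBX1, were named after their values were seen.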

Additional observations from a re-analysis of the deposited data

Results flagged for a closer look

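Liver genes were flagged because they gave a signal outside the genes of the comparison in a single treated library. In MGH-CP1 replicate 2 the 11 genes summed to 290 fragments, 0.00165% of the library, against 0 and 3 fragments in the vehicle control libraries and 8 in MGH-CP1 replicate 1. Of them ALB had 102, APOB 38, GPC3 33, AHSG 32 and AFP 30 fragments. The labels give a single cell line for all libraries. The source of these fragments was not tested. Without this library the log2 fold changes of CDC25A, CCNE2 and SKP2 were -0.95, -0.85 and -0.77, further from 0 than with it. That of CCNE1 was nearer 0, at -0.39 without it and -0.41 with it.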

How the results depend on the processing

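The 8 G1/S genes stayed called lower with a pseudocount of 0.1, median-ratio scaling, totals without mitochondrial genes, quantile normalization, the replicate block and voom. Of genes tested, 2860 of 12080 were called lower with the pseudocount, 3481 of 12071 with median-ratio scaling and 2687 of 12097 with non-mitochondrial totals. With quantile normalization, the replicate block and voom it was 3221, 3052 and 3113 of 12080. In the main comparison 2869 of all 12080 genes tested were called lower. With a mean FPKM of at least 5, where 2564 of 8439 were, the count of G1/S genes was 7, CCNE2 being untested. Without the variance trend, where 2644 of 12080 were, it was 7, CCND1 being lost. With no filter, where 1844 of 24878 were, it was 5, with CCND1, CDK4 and CCNE1 lost. Without shared variance, where 4 of 12080 were, it was 0, with 5 G1/S genes at an unadjusted p under 0.05 from limma. With a library left out, the 8 log2 fold changes all stayed below 0. That of CDC25A ranged from -0.95 to -0.75 and that of CCND1 from -0.24 to -0.14. Genes of the other pathway lists called higher, 13 in the main comparison, were 8 with median-ratio scaling, 7 with no filter, 0 without shared variance and 7 to 11 with a library left out, 7 without either MGH-CP1 library. Those called lower, 54, were 45 with no filter, where 1844 of 24878 were, and 0 without shared variance, where 4 of 12080 were. CCND3 turned to 0.012 with totals without mitochondrial genes and ranged from -0.015 to 0.0068 with a library left out, never called. The replicate block gave 8 G1/S genes lower, and 12 higher and 56 lower in the lists. Of all 12080 genes, 3466 were then higher and 3052 lower. The replicate numbers are shared only as numbers (correlation of deviations 0.0777). The depth, 15 to 24 fragments on CCND2, left its comparison to the counting interval. The causes of the other changes were not tested.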
